A study of Mus musculus with 2 samples.

Results

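Imprinted genes are genes that are transcribed mainly from the chromosome inherited from 1 parent, and 42 of them, listed by symbol, were followed here in mouse embryonic stem (ES) cells during 48 h of differentiation with retinoic acid (RA). Features of the array carried the symbols of 38 of the 42 genes, out of 22485 named genes in all. Slc22a3, Rian, Nespas and Zrsr1 had no feature under their symbol and were not analysed here. The rule is a list of names that uses no measured value, but the list was drawn up with earlier results of these arrays known.

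Cells of the UtxKO line, which lack Utx, and V6.5 cells, the wild-type line, were each hybridised on 1 two-colour Agilent array. Utx (also Kdm6a) is an X-linked enzyme that removes methyl groups from lysine 27 of histone H3, and the study asked what it is needed for in embryonic development. On each array the Cy3 dye carried RNA from untreated cells, grown on gelatin with LIF, and the Cy5 dye carried RNA from cells moved to medium with 100 nM RA and no LIF for 48 h. LIF, the cytokine that keeps mouse ES cells undifferentiated, was withdrawn as RA was added, so their effects cannot be told apart. Every value below is a log2 ratio of RA-treated over untreated cells of 1 line, so that 1 stands for a 2-fold higher and -1 for a 2-fold lower signal after RA. That direction is the likely one, taken from the dyes and from the usual order of the tool that the submitters name, and the scale was inferred from the range of the values. The largest single ratio, 5.86 on the UtxKO array, would be 58.3-fold on this scale. How many clones the UtxKO line stands for is not given in the sources used here. Spot intensities were not used here, so neither the level of a gene nor the presence of a marker could be checked, only its change. A ratio sums both parental alleles and says nothing of which was transcribed.

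Imprinted genes lie mostly in clusters, and each cluster is ruled by a control region that carries DNA methylation from only 1 parent. In several clusters the unmethylated copy makes a long noncoding RNA that silences its neighbours on the same chromosome, with H3K27 methylation by Polycomb proteins as part of that silencing in some of them. ZFP57, a zinc finger protein of early embryos and ES cells, binds the methylated hexamer TGCCGC in control regions and keeps the methylation in place. As a broad tendency, many genes read from the paternal copy favour growth of the fetus and placenta, and many read from the maternal copy restrain it.

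The RefSeq promoter windows of 4 of the genes on which the results turn are shown, because Magel2 had the largest ratios of the genes past the test, Dlk1 and Meg3 share a cluster and changed in opposite directions, and Mest differed most between the lines. RefSeq gives 3 windows for Mest, 2 for Meg3 and 1 each for Magel2 and Dlk1, and the one with the most CpG was taken. Each window runs 5′ to 3′ on the + strand of GRCm38.p6, from 250 bases before to 50 after the transcription start, and capitals mark CpG dinucleotides. The windows are chr7:62376729-62377028 for Magel2, chr12:109452573-109452872 for Dlk1, chr12:109540746-109541045 for Meg3 and chr6:30737800-30738099 for Mest.
Magel2: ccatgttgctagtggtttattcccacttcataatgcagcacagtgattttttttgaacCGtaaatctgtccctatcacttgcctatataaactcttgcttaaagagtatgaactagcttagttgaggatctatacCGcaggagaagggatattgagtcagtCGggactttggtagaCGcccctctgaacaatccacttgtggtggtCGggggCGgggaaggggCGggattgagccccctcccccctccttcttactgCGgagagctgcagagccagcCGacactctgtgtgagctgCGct
Dlk1: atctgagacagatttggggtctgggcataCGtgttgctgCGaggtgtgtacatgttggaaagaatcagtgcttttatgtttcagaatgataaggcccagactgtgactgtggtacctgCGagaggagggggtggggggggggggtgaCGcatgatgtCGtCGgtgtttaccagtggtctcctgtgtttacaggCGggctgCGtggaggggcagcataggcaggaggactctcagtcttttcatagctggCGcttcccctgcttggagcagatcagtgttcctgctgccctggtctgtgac
Meg3: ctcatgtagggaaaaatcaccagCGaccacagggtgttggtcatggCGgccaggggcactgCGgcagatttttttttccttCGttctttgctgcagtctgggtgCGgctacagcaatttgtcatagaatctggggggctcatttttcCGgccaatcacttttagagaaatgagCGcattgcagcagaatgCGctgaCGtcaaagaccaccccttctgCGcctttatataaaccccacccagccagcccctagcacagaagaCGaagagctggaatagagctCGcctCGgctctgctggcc
Mest: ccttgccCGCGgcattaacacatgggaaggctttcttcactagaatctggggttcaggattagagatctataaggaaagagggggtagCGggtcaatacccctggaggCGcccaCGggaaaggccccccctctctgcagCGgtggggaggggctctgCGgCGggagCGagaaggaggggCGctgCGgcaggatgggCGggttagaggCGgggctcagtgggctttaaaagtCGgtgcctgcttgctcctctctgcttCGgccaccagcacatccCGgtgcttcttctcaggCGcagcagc

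The window shown held 10 CpG for Magel2, 9 for Dlk1, 13 for Meg3 and 17 for Mest. Over all 32851 RefSeq windows of 27025 genes the median was 7, and 43.5% of windows held at least as many CpG as Magel2, 45.8% as Dlk1, 37.9% as Meg3 and 31.4% as Mest. The letters TGCCGC, read on either strand (GCGGCA on the other), were found at 2 places in the Mest window shown and 1 place in the Meg3 window shown, and 11.6% of all windows held them. The letters AGGTCA, a half-site of retinoid receptors whose other strand reads TGACCT, were in none of these 4 windows and in 16.3% of all windows. Of the 42 genes, 33 had a window, and 29 of these had one with at least the median CpG count. Here a gene counts by its window with the most CpG, whereas the median is over single windows. That raises the count for genes with several windows, and no share of all genes counted in this way was taken. TGCCGC was found in 12 of the 47 windows of the 33 genes, in 11 genes, and AGGTCA in 4 windows. These matches describe the letters alone, since no binding or methylation was measured.

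Mest also hosts a microRNA on its own strand, and its 2 mature arms are given because Mest was the member with the largest difference between the lines, with capitals marking the seed, bases 2 to 8. The array held no feature named for this microRNA, so it was not measured here. The arms lie at chr6:30741314-30741336 and chr6:30741354-30741375 of the + strand.
mmu-miR-335-5p: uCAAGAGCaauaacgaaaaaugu
mmu-miR-335-3p: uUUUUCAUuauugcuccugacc

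Across both lines, 6 of the 38 measured imprinted genes rose with RA and 3 fell. Magel2, Peg10, Dlk1, Cdkn1c, Ndn and Usp29 rose, and Slc22a18, Meg3 and Cd81 fell. All of these but Peg10, Dlk1 and Meg3 rest on 1 feature each, so their spread between features is unknown. The test was limma's moderated test of the mean ratio of the 2 arrays against 0. It was two-sided, its p-values were adjusted by the Benjamini-Hochberg method with all 22485 genes in the family, and the threshold was 0.05. At an unadjusted p under 0.05, limma had 10 of the 38 genes higher and 7 lower, where 34.7% of all genes passed in either direction. Over all genes, 8.93% rose and 7.93% fell, against 15.8% and 7.89% of the imprinted genes, so the share that fell was at the background and the share that rose was above it by a few genes. Each line counts as 1 sample in this test. The p-values rest on the spread between the 2 arrays, with the spread of all genes borrowed, and a dye bias alike on both arrays would pass as a change. That spread includes any difference between the lines, so a gene that responds in 1 line only can fail the test. Against a 1.5-fold change (limma's treat), Magel2 alone of the imprinted genes still passed, where 0.872% of all genes rose. The median log2 ratio of the imprinted genes was 0.13 in UtxKO and 0.09 in V6.5, against -0.02 in each line over all genes.

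Taken by line, a ratio of 2-fold or more upward was found for 6 imprinted genes in UtxKO cells (Mest, Magel2, Peg10, Sgce, Nnat and Cdkn1c) and downward for 1 (Meg3), where 2.92% of all genes were as much higher and 1.65% as much lower. In V6.5 cells Magel2 and Dlk1 reached 2-fold upward and Slc22a18 downward, 2 genes and 1 gene, where the background was 2.52% and 1.59%. The share higher was thus 15.8% in UtxKO and 5.26% in V6.5. At 1.5-fold in either direction the counts were 15 in UtxKO and 10 in V6.5, or 39.5% and 26.3%, where 12.3% and 12.0% of all genes passed. These counts on single arrays carry no test. Opposite signs on the 2 arrays were seen for 6 of the 38 genes, or 15.8%, and for 24.4% of all genes. The plot by cluster shows each gene's pair of ratios.

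**Figure D1:**
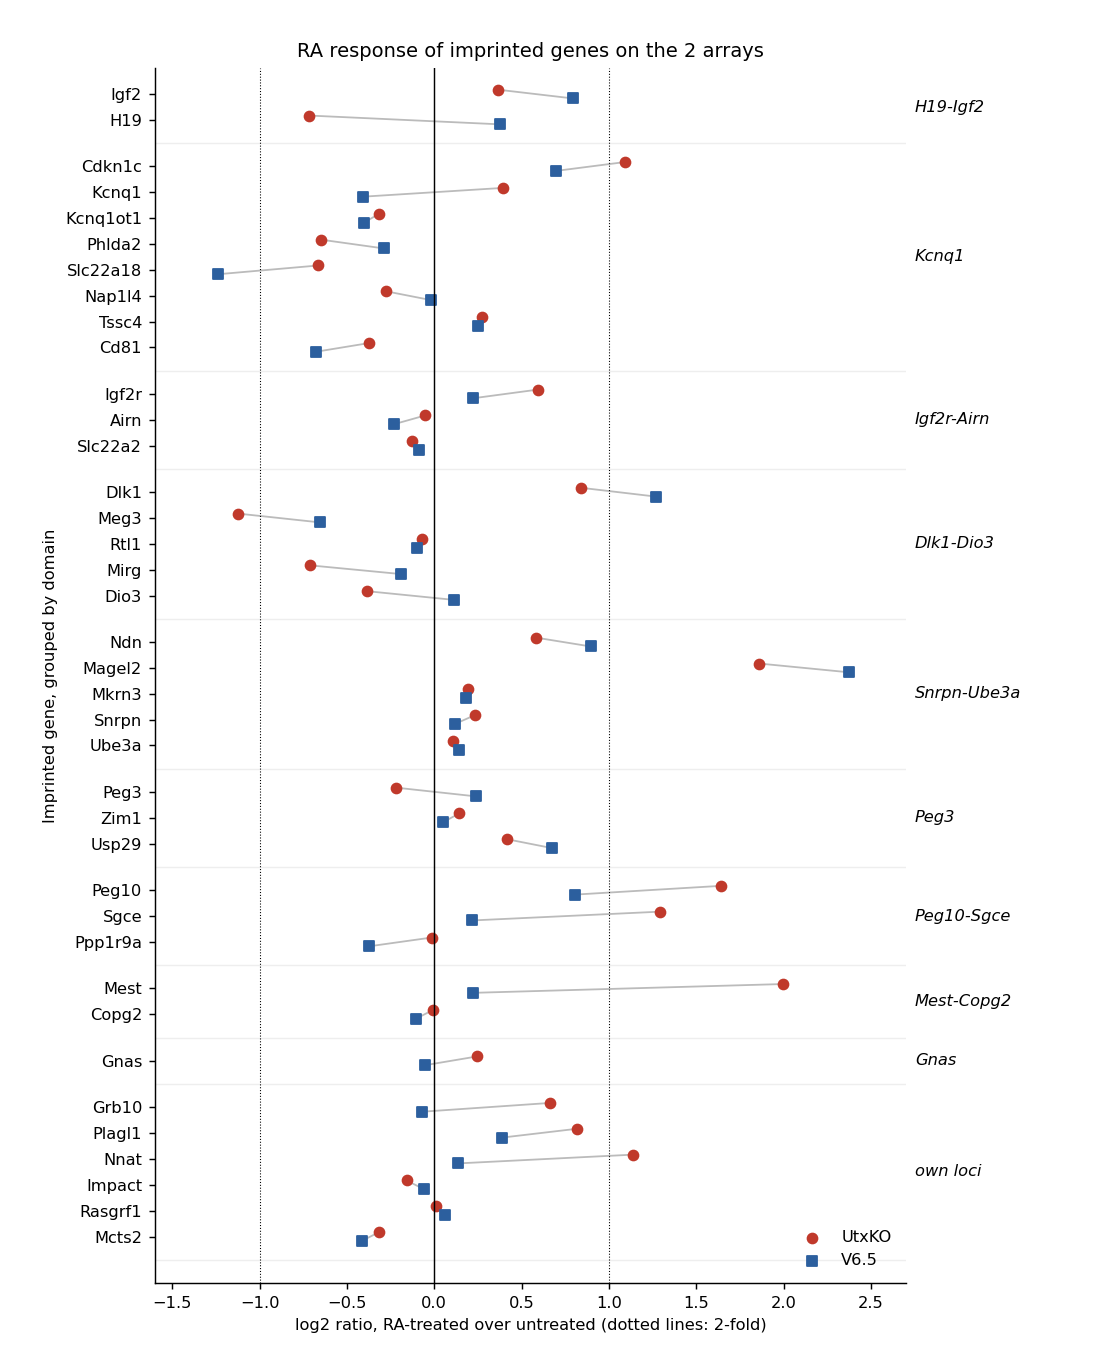
Log2 ratio of RA-treated over untreated cells (x axis) of the 38 measured imprinted genes (y axis, by cluster), with 1 point for the UtxKO array and 1 for the V6.5 array. Magel2 is far to the right on both arrays, while Mest is at 2.0 in UtxKO and 0.22 in V6.5.

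In the Snrpn-Ube3a cluster, the Prader-Willi and Angelman syndrome region of human genetics, 2 of 5 genes rose and none fell. Over all genes 8.93% rose and 7.93% fell. Counts in this and the following clusters rest on few genes, so they describe single genes and not a cluster. Magel2 encodes a MAGE family protein that works with a ubiquitin ligase, and its ratio was 1.86 in UtxKO cells and 2.37 in V6.5 cells, or 3.63-fold and 5.18-fold. Its mean was 2.12 ± 0.15 (moderated SE, n = 2 arrays, adjusted p = 0.0103), which ranked 107 from the top of all 22485 genes. Magel2 and Ndn have 1 feature each. Both arrays were far above 0, and the V6.5 value was the higher one by 0.51. Ndn encodes necdin, a relative of Magel2 that restrains proliferation in neurons, and it reached 0.58 in UtxKO cells and 0.89 in V6.5 cells. Its mean was 0.74 ± 0.11 (SE, n = 2, adjusted p = 0.027). Mkrn3, a makorin ring finger protein that in humans acts as a brake on puberty, stood at 0.19 in UtxKO and 0.18 in V6.5. Snrpn, which encodes a spliceosome protein of neurons, had ratios of 0.23 in UtxKO and 0.12 in V6.5. Ube3a, the ubiquitin ligase of Angelman syndrome and the only gene of the 5 read from the maternal copy (in neurons), had 0.11 in UtxKO and 0.14 in V6.5. Averaged over features, all 5 genes were above 0 on both arrays, and only Magel2 and Ndn passed the test. Single features went the other way for Snrpn (-0.07 in V6.5) and Ube3a (-0.13 in UtxKO).

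The Dlk1-Dio3 cluster held 1 gene that rose and 1 that fell of 5 measured. Dlk1, a membrane protein of the paternal copy that keeps preadipocytes from maturing, had a ratio of 0.84 in UtxKO cells and 1.27 in V6.5 cells, and its mean was 1.05 ± 0.13 (SE, n = 2, adjusted p = 0.0208). Meg3, a long noncoding RNA of the maternal copy, had -1.12 in UtxKO cells and -0.66 in V6.5 cells, with a mean of -0.89 ± 0.14 (SE, n = 2, adjusted p = 0.0304). Both lines thus had Dlk1 above 0 and Meg3 below 0. The 3 features of Meg3 differed on the UtxKO array. A pair of features of 1 transcript stood at -1.54 and -1.64 in UtxKO and at -0.47 and -0.77 in V6.5. The feature of another transcript stood at -0.18 in UtxKO and -0.72 in V6.5. Tested one by one, 1 of the 3 features passed (limma adjusted p = 0.0361) and the others did not (0.0791 and 0.124), so the Meg3 call is lost where every feature has to pass. Mirg, a maternal noncoding RNA that hosts many microRNAs, had -0.71 in UtxKO and -0.19 in V6.5 and did not pass the test. Rtl1, a retrotransposon-derived gene needed for placental capillaries, stood at -0.07 in UtxKO and -0.10 in V6.5. Dio3, the enzyme that inactivates thyroid hormone, had -0.39 in UtxKO and 0.12 in V6.5.

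Of the 3 genes of the Peg10-Sgce cluster, 1 rose. Peg10, derived from a retrotransposon and needed for the placenta, had a ratio of 1.64 in UtxKO cells and 0.81 in V6.5 cells, or 3.12-fold and 1.75-fold. Its mean was 1.22 ± 0.22 (SE, n = 2, adjusted p = 0.0398), and its features read 1.35 and 1.94 in UtxKO against 0.81 and 0.80 in V6.5. Both UtxKO features were thus above both V6.5 features. Sgce encodes epsilon-sarcoglycan, a membrane protein whose loss causes myoclonus dystonia in humans, and shares a bidirectional promoter region with Peg10. It had 1.29 in UtxKO cells and 0.22 in V6.5 cells, a mean of 0.75 ± 0.28 (SE, n = 2, adjusted p = 0.152) that did not pass. Ppp1r9a, the actin-binding protein neurabin, stood at -0.01 in UtxKO and -0.37 in V6.5.

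In the Kcnq1 cluster 1 of 8 genes rose and 2 fell. Cdkn1c, an inhibitor of cyclin-dependent kinases read from the maternal copy, reached 1.09 in UtxKO cells and 0.70 in V6.5 cells, and its mean was 0.89 ± 0.12 (SE, n = 2, adjusted p = 0.0244). Slc22a18, a membrane protein of a transporter family, had -0.66 in UtxKO cells and -1.24 in V6.5 cells, with a mean of -0.95 ± 0.16 (SE, n = 2, adjusted p = 0.0352). Cd81, a tetraspanin of the cell surface, had -0.37 in UtxKO and -0.68 in V6.5, and its mean of -0.53 ± 0.11 passed narrowly (SE, n = 2, adjusted p = 0.0481). Both genes that fell had the lower value in V6.5 cells. Kcnq1ot1, the paternal noncoding RNA that silences the cluster in cis, stood at -0.32 in UtxKO and -0.40 in V6.5, just outside the threshold (adjusted p = 0.0522). Phlda2, which limits placental growth, had -0.65 in UtxKO and -0.29 in V6.5. Nap1l4, a histone chaperone, had -0.28 in UtxKO and -0.02 in V6.5, and Tssc4 had 0.27 in UtxKO and 0.25 in V6.5. Kcnq1, a potassium channel, stood at 0.39 in UtxKO and -0.41 in V6.5, which left a mean of -0.01 ± 0.21 (SE, n = 2, adjusted p = 0.979).

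Of the 3 genes of the Peg3 cluster, 1 rose. Usp29, a ubiquitin protease of the paternal copy, had 0.42 in UtxKO cells and 0.67 in V6.5 cells, and its mean was 0.55 ± 0.10 (SE, n = 2, adjusted p = 0.0379). Peg3, a zinc finger protein read from the opposite strand, stood at -0.22 in UtxKO and 0.24 in V6.5. The RefSeq windows of Usp29 and Peg3 overlap by 263 bases, and their starts lie 164 bases apart. Usp29 passed the test and its neighbour, which shares that stretch of DNA, did not. Zim1, a zinc finger gene of the maternal copy, had 0.14 in UtxKO and 0.05 in V6.5.

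None of the measured genes of the remaining loci passed the test across both lines, and Igf2, Igf2r and Plagl1 were higher and Mcts2 lower at an unadjusted p under 0.05 in limma. Mest, an enzyme of the hydrolase fold read from the paternal copy, had 2.0 in UtxKO cells and 0.22 in V6.5 cells, and its mean of 1.11 ± 0.45 did not pass (SE, n = 2, adjusted p = 0.179). Its neighbour Copg2, a subunit of the coatomer of transport vesicles, stood at -0.01 in UtxKO and -0.10 in V6.5. Igf2, the fetal growth factor, had 0.37 in UtxKO and 0.80 in V6.5 (adjusted p = 0.0575). The noncoding RNA H19 beside it had -0.71 in UtxKO and 0.38 in V6.5, a mean of -0.17 ± 0.28 (SE, n = 2, adjusted p = 0.72). Its 2 features did not move alike, with -1.36 and -0.07 in UtxKO against 0.80 and -0.05 in V6.5, so the H19 values rest on 1 feature.

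Igf2r, the receptor that takes IGF2 up for degradation, had 0.59 in UtxKO and 0.22 in V6.5. Its 10 features kept close together, between 0.53 and 0.65 in UtxKO and between 0.19 and 0.32 in V6.5. Airn, the paternal noncoding RNA that silences Igf2r in cis, had -0.05 in UtxKO and -0.23 in V6.5, and Slc22a2, an organic cation transporter, had -0.13 in UtxKO and -0.09 in V6.5. Gnas, the stimulatory G protein locus with several alternative products, averaged 0.25 in UtxKO and -0.05 in V6.5 over 4 features of 4 transcripts, which ran between -0.07 and 0.66 in UtxKO and between -0.58 and 0.32 in V6.5. The spread between its transcripts was thus larger than the difference between the lines.

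Grb10, an adaptor that dampens insulin and IGF signalling, had 0.66 in UtxKO cells and -0.07 in V6.5 cells, with a mean of 0.30 ± 0.20 (SE, n = 2, adjusted p = 0.366). Plagl1, a zinc finger transcription factor, had 0.82 in UtxKO and 0.39 in V6.5 (adjusted p = 0.0538), and its 4 features ran between -0.12 and 1.54 in UtxKO and between -0.06 and 0.70 in V6.5. Nnat encodes neuronatin, a small membrane protein of neurons, and had 1.14 in UtxKO and 0.13 in V6.5, a mean of 0.64 ± 0.26 (SE, n = 2, adjusted p = 0.184). Mcts2, a retrogene copy of Mcts1, stood at -0.32 in UtxKO and -0.42 in V6.5 (adjusted p = 0.0514). Impact, a regulator of the stress kinase GCN2, had -0.16 in UtxKO and -0.06 in V6.5, and Rasgrf1, an exchange factor for Ras, had 0.01 in UtxKO and 0.06 in V6.5. Igf2, Plagl1, Mcts2 and Kcnq1ot1 all lay within 0.01 of the threshold in adjusted p.

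Each gene was classed by the parental copy named for it, which need not hold in every tissue, as for Ube3a. By this class, 5 of 20 measured paternal genes rose (Magel2, Peg10, Dlk1, Ndn and Usp29) and 0 fell, while 15 did not pass. In the same limma test 7 paternal genes were higher and 2, Kcnq1ot1 and Mcts2, lower at an unadjusted p under 0.05. At that level 3785 of all 22485 genes were higher and 4027 lower. Of 16 measured maternal genes 1 rose (Cdkn1c), 3 fell (Slc22a18, Meg3 and Cd81) and 12 did not pass. That is 25.0% of the paternal genes higher and 0 lower, and 6.25% of the maternal genes higher and 18.8% lower, where 8.93% of all genes rose and 7.93% fell, so a handful of genes sets the contrast. Maternal genes went both ways at an unadjusted p under 0.05 in limma. At that level 3 were higher (Cdkn1c, Tssc4 and Igf2r) and 5 lower (Slc22a18, Meg3, Cd81, Phlda2 and Mirg). Neither of the pair with products of both copies, Gnas and Grb10, passed. The median ratio of the paternal genes was 0.30 in UtxKO and 0.20 in V6.5, and that of the maternal genes was -0.07 in UtxKO and -0.10 in V6.5. Several genes share a cluster and a control region, so they are not independent of each other, and the difference between the parental classes was not tested. Which copy was read in these cells was not measured either, so the classes are labels only. By product, 6 protein-coding genes rose and 2 fell of 33 measured. Of the 5 noncoding RNAs measured, 0 rose, 1 fell and 4 did not pass, and at an unadjusted p under 0.05 limma had 0 higher and 3 lower (Meg3, Mirg and Kcnq1ot1). Meg3 and Mirg share a cluster, and so few genes do not describe noncoding RNAs as a class. The 5 RNAs had a median of -0.71 in UtxKO and -0.23 in V6.5.

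**Figure D2:**
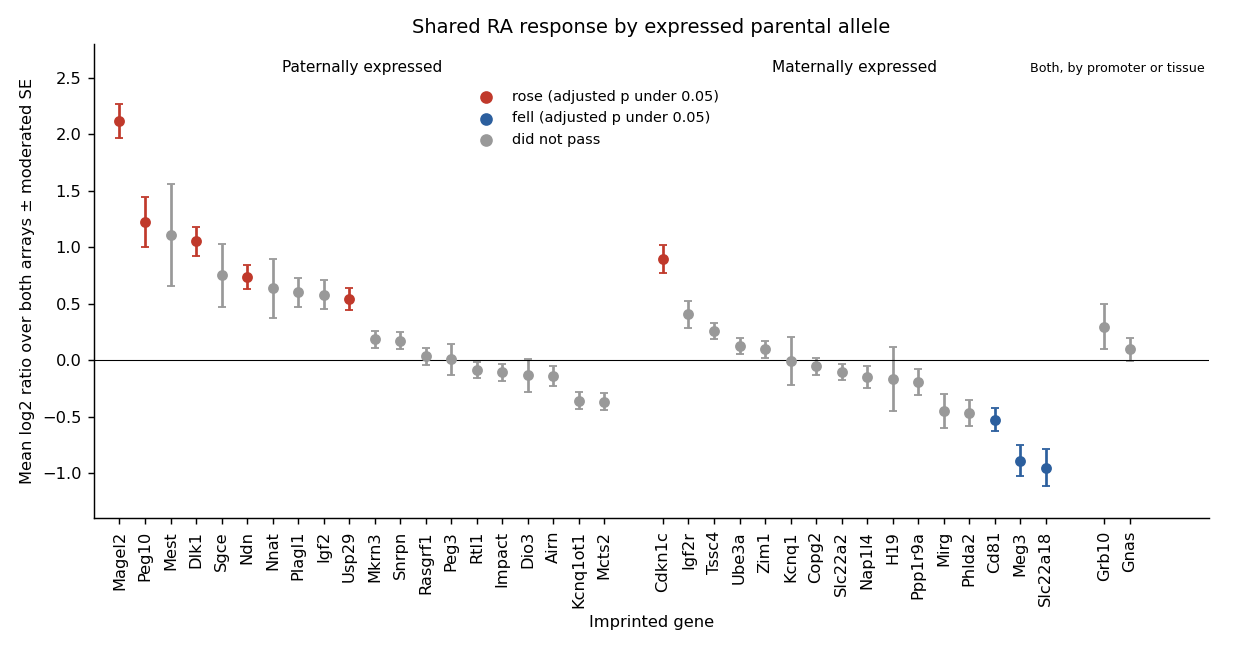
Mean log2 ratio of the 2 arrays, with its moderated SE, for each measured imprinted gene, grouped by the parental copy named for it, which need not hold in every tissue. Which copy these cells read was not measured. All of the genes that fell are in the maternal group, and 5 of the 6 that rose are in the paternal group.

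The lines were also set against each other by subtracting the V6.5 ratio from the UtxKO ratio, with 1 array for each line and hence no test. Mest, Sgce and Nnat had a ratio at least 2-fold higher in UtxKO, where 0.583% of all genes did, and H19 a ratio at least 2-fold lower, where 0.467% did. At 1.5-fold in either direction the count was 7, or 18.4% of the imprinted genes, where 4.38% of all genes passed. These 7 were Mest, Sgce, Nnat, Peg10, Kcnq1 and Grb10, higher in UtxKO, and H19, lower in UtxKO. The difference was 1.77 for Mest, or 3.41-fold, which ranked 13 from the top of all genes. It was 1.07 for Sgce, 1.00 for Nnat, 0.84 for Peg10, 0.80 for Kcnq1 and 0.73 for Grb10. For H19 it was -1.09, rank 73 from the bottom. UtxKO was the higher line for 22 of the 38 genes and the lower one for 16, where it was the higher line for 11402 of all 22485 genes. The median difference was 0.06, against 0.00 over all genes. Of the 7 measured RA targets 6 also had the higher ratio in UtxKO, with a median difference of 0.54, and Crabp2 differed by 1.98, more than Mest. Whether the difference in RA targets has a part in that of the imprinted genes was not tested.

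**Figure D3:**
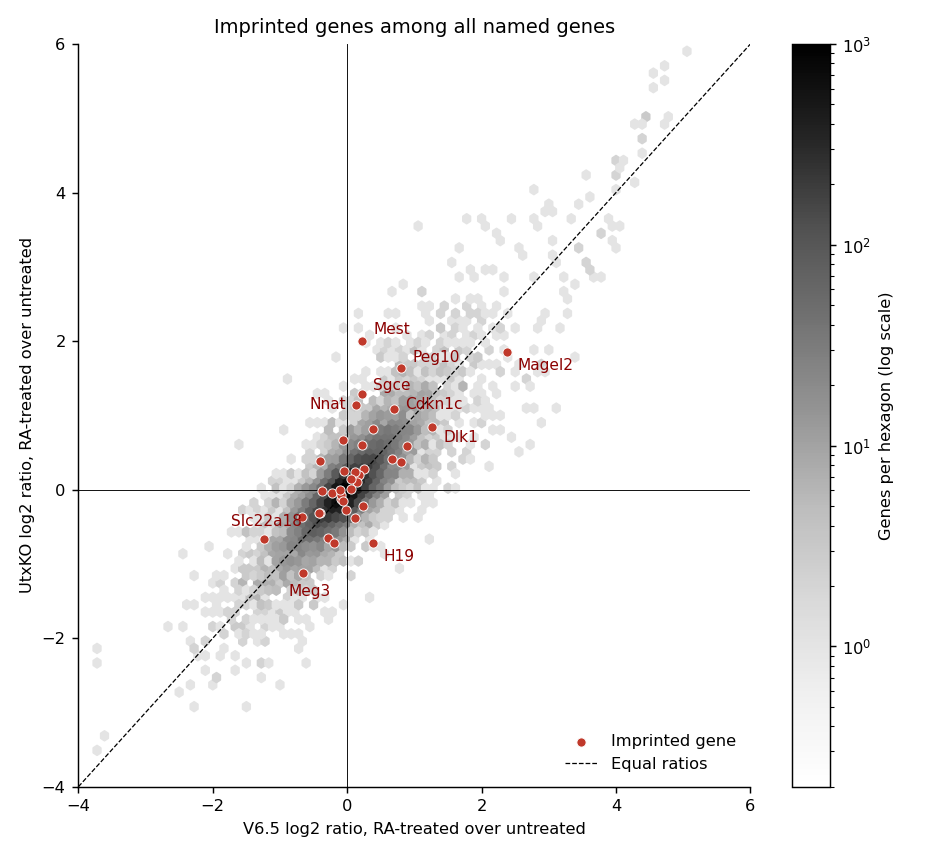
UtxKO log2 ratio (y axis) against V6.5 log2 ratio (x axis) for all 22485 named genes, as hexagons shaded by gene count, and for the 38 imprinted genes, as red points. Mest, Sgce and Nnat lie well above the line of equal ratios, and H19 lies below it.

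The features behind these genes gave a measure of technical spread within an array. The 12 Mest features ran between 1.63 and 2.15 on the UtxKO array and between 0.00 and 0.42 on the V6.5 array, so the ranges did not overlap. The Nnat pair read 1.10 and 1.17 in UtxKO against 0.10 and 0.17 in V6.5, again apart. Sgce, Kcnq1 and Grb10 rested on 1 feature each. Over the 5751 genes with 2 to 9 features, the median SD between features of a gene was 0.14 on each array. Of the 22 imprinted genes with more than 1 feature, 15 had features of 1 sign in UtxKO, 14 in V6.5 and 11 on both arrays. Features of 1 gene share the RNA and the array, so they show how well that array measured the gene and not how another culture would behave.

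**Figure D4:**
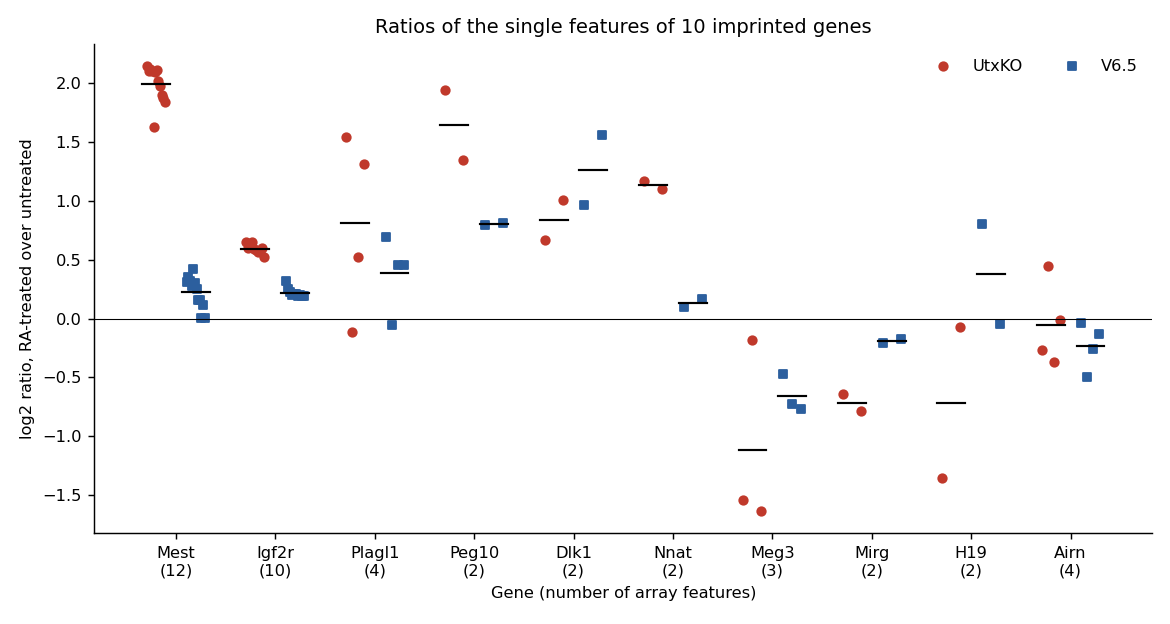
Log2 ratio of RA-treated over untreated cells for each feature of 10 imprinted genes with several features, the mean of a gene on an array as a black line, with the UtxKO array left of the V6.5 array. The 12 Mest features form separate groups for the lines, whereas the H19 pair spreads widely on both arrays.

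Neighbours in the chromosome order of RefSeq, up to 3 measured genes on either side of a cluster and all between its members, numbered 67, of which 7 rose and 3 fell. These shares, 10.4% and 4.48%, lie near the 8.93% and 7.93% of all genes, so the neighbours as a group are no result, and those that passed are named as single genes. Igf2os, the transcript antisense to Igf2, had 1.97 in UtxKO cells and 1.42 in V6.5 cells, a mean of 1.69 ± 0.16 (SE, n = 2, adjusted p = 0.0142), while Igf2 itself did not pass. B230209E15Rik, between Snrpn and Ndn, reached 1.00 in UtxKO and 0.95 in V6.5 (mean 0.98 ± 0.07, SE, n = 2, adjusted p = 0.0111). Aurkc, a kinase of meiosis beside the Peg3 cluster, had 0.72 in UtxKO and 1.14 in V6.5. The others that rose were Casd1, Pon3, Klf14 and 4732491K20Rik. Tspan32, Ppp2r5c and the collagen gene Col1a2 fell, with -0.35, -0.58 and -1.69 in UtxKO and -0.48, -0.48 and -1.25 in V6.5. Near Peg10, Col1a2 fell and Casd1 and Pon3 rose.

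**Figure D5:**
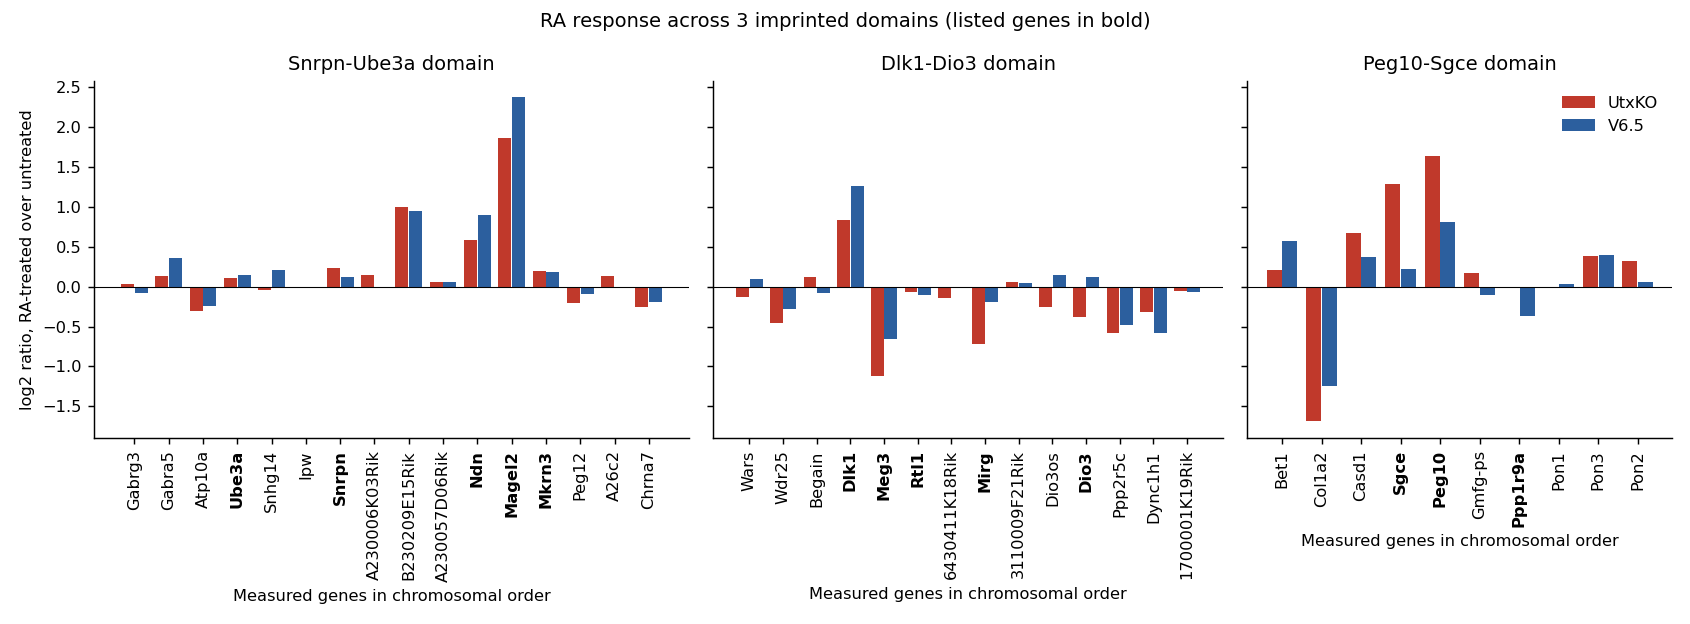
Log2 ratio of RA-treated over untreated cells (y axis) for measured genes in chromosome order (x axis, rank and not distance) across 3 clusters of imprinted genes, with a UtxKO and a V6.5 bar for each gene and the listed genes in bold. Within the Dlk1-Dio3 cluster Dlk1 stands above 0 and Meg3 below 0 in both lines.

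Beyond the 42 genes, 40 of 41 further imprinted genes on a second list were measured, and 6 rose and 1 fell, or 15% and 2.50%, where 8.93% of all genes rose and 7.93% fell. At 1.5-fold in either direction this list was near or below the background on single arrays, with 12.5% in UtxKO and 5.00% in V6.5 where 12.3% and 12.0% of all genes passed. For the difference between the lines 7.50% passed 1.5-fold, where 4.38% of all genes did, and 0 genes reached 2-fold. Calcr, the calcitonin receptor gene, had the largest change, with 1.31 in UtxKO cells and 1.08 in V6.5 cells (mean 1.19 ± 0.09, SE, n = 2, adjusted p = 0.0114). Klf14, a single-exon transcription factor gene of the Mest region, had 0.71 in UtxKO and 0.54 in V6.5. Osbpl5, which encodes a lipid-binding protein, had 0.57 in UtxKO and 0.48 in V6.5. Casd1 had 0.67 in UtxKO and 0.37 in V6.5, and Herc3 had 0.44 in UtxKO and 0.58 in V6.5. Pon3, a paraoxonase, had 0.39 in UtxKO and 0.40 in V6.5. Tspan32 was the gene that fell. Tspan32, Casd1, Pon3 and Klf14 are also among the neighbours named above, so the 2 sets overlap. The medians of this list were 0.07 in UtxKO and -0.01 in V6.5.

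Among 30 genes that keep or erase imprints, 2 rose and 3 fell, or 6.67% and 10%, which is near the background of 8.93% and 7.93%. Ctcfl, the germ line relative of the insulator protein CTCF, had 1.69 in UtxKO cells and 1.87 in V6.5 cells, a mean of 1.78 ± 0.09 (SE, n = 2, adjusted p = 0.00748). Smchd1, a chromatin protein that silences the inactive X chromosome and some imprinted clusters, had 0.54 in UtxKO and 0.40 in V6.5. Tet1, which oxidises methylated cytosine, had -1.16 in UtxKO and -0.98 in V6.5 (mean -1.07 ± 0.09, SE, n = 2, adjusted p = 0.0118), and its relative Tet2 had -0.83 in UtxKO and -0.48 in V6.5. Ehmt2, a methyltransferase of histone H3 lysine 9, had -0.61 in UtxKO and -0.52 in V6.5. Zfp57 did not pass, with -0.34 in UtxKO and -0.28 in V6.5, nor did Dnmt1, the maintenance methyltransferase, with -0.33 in UtxKO and -0.32 in V6.5. Of 10 measured genes of Polycomb and related silencing, Eed, a core subunit of the H3K27 methyltransferase complex, fell, with -0.44 in UtxKO and -0.43 in V6.5. Kdm6a, the gene deleted in UtxKO, had a ratio of -0.16 in UtxKO and -0.39 in V6.5, which compares treated with untreated cells of a line and so does not check the deletion.

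Markers of other cells and of the treatment were read on the same arrays, where 8.93% of all genes rose and 7.93% fell. Of the RA targets 85.7% rose, and 40.0% of the pluripotency and 58.8% of the fibroblast markers fell. Of 7 measured RA targets, 6 rose (Cyp26a1, Cyp26b1, Rarb, Stra8, Hoxb1 and Dhrs3), and Cyp26a1, which degrades RA, had 4.27 in UtxKO and 3.54 in V6.5. Crabp2, an RA-binding protein, did not pass, with 2.65 in UtxKO and 0.67 in V6.5. Of 10 pluripotency markers 4 fell, namely Pou5f1, Klf4, Tbx3 and Tfcp2l1, and Pou5f1 had -1.58 in UtxKO and -0.94 in V6.5. Of 17 measured fibroblast markers 0 rose and 10 fell in the limma test, the same counts at an unadjusted p under 0.05, with a median of -0.94 in UtxKO and -0.71 in V6.5 and a range between -2.63 and 0.32 in UtxKO and between -2.12 and 0.28 in V6.5. The genes that fell were Col1a1, Col1a2, Col3a1, Thy1, S100a4, Postn, Vim, Acta2, Prrx1 and Lox. Fewer cells of a type and less RNA per cell cannot be told apart in such bulk samples. Of 12 measured trophoblast markers 3 rose (Gata3, Tfap2c and Esx1), and of 10 measured neural markers 2 rose (Neurog2 and Zic1) and 3 fell (Neurod1, Tubb3 and Stmn2). Of 12 extraembryonic endoderm markers 2 fell (Lama1 and Sparc), or 16.7%, and the median was 0.21 in UtxKO and 0.01 in V6.5. At an unadjusted p under 0.05 in limma 3 others were higher (Dab2, Sox7 and Gata6), where 3785 of all 22485 genes were. These lists moved on the arrays on which the imprinted genes were read, and their part in the ratios of the imprinted genes was not tested.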

How the data were processed

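The authors deposited 1 ratio per feature and array, taken here to be on the log2 scale. The submitters' processing notes name limma, with no version or role. How background was corrected and arrays were normalized is, like the role of limma, not given in the sources used here. The ratios of an array average 0 over 44397 features. A platform annotation gave 33026 features 1 symbol and 11371 none. Features of a symbol were averaged, which gave 22485 genes, 16347 of them from 1 feature. The mean of the 2 arrays was tested against 0 with limma 3.58.1 in R 4.3.3 (lmFit and eBayes, 1 residual and 2.98 prior degrees of freedom). On ratios simulated from the model that the fit assumes, it recovered 39 of 50 genes changed by 1 log2 unit, with 8 false calls. That check does not cover a dye bias or a difference between the lines. With 1 array per line, counts per line and differences between lines have no test, and precision is limited by having so few arrays. There was no dye swap.

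Every measured gene of the list is named. Means, SEs and adjusted p-values are given for genes that passed or differed 1.5-fold between the lines, and adjusted p for 4 more near the threshold, picked after their values were seen, as were the neighbouring genes shown. Where another list is given by counts, its genes that passed are named. The genes, lists and clusters were chosen with earlier results of these data known. Alternatives were centring, feature median, single-feature genes, robust fitting, all features passing and a 1.5-fold threshold. Promoter and microRNA sequences are RefSeq's (GRCm38.p6).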

Additional observations from a re-analysis of the deposited data

Results flagged for a closer look

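The ratio of RA-treated over untreated cells had opposite signs on the 2 arrays for 6 imprinted genes. UtxKO minus V6.5 came to -1.09 for H19, 0.80 for Kcnq1, 0.73 for Grb10, -0.50 for Dio3, -0.46 for Peg3 and 0.30 for Gnas. These differences were not tested, since each line has 1 array, and 24.4% of all genes had opposite signs. The H19 difference rests on 1 of its 2 features, and Kcnq1, Grb10 and Dio3 have 1 feature each. The Peg3 pair read -0.28 and -0.16 in UtxKO against 0.22 and 0.26 in V6.5.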

How the results depend on the processing

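All 9 genes that passed across both lines also passed with each array centred on its median, with the median of a gene's features, with a robust fit and in a fit of single-feature genes plus all the imprinted genes. Of these, 6 have 1 feature each (Magel2, Ndn, Cdkn1c, Slc22a18, Cd81 and Usp29), so the feature median left their ratios unchanged. For them, a rule that every feature passes looks at that 1 feature only. Against a 1.5-fold change 1 gene rose and 0 fell, since that test asks for a larger change. With median centring, which moved the ratios by 0.03, 8 rose, Igf2 and Plagl1 among them, and with the feature median 7 rose. Where every feature had to pass, Meg3 was lost and 2 fell. With a 1.5-fold in place of a 2-fold threshold the counts were 15 in UtxKO, 10 in V6.5 and 7 for the difference. The mean of Kcnq1 was 0.0233 with median centring, against -0.01 otherwise, because that setting moves every ratio up. Each ratio already pairs treated with untreated cells of a line, and no further block could be fitted with 1 array per line. Signal over background is unknown here, so small ratios of dim features could not be set apart.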
